A study of Mus musculus with 9 samples.

Results

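Macrophages labelled Pparg-deficient were compared with macrophages from heterozygous mice, both sorted from mouse lung, on 6 of the 9 single-colour Illumina beadchip arrays of the series. The 6 arrays were taken by their titles, 3 in each group, and every probe that stood above background (by a detection p under 0.05) on 3 or more of them was kept. This left 11233 genes with a symbol, 1 probe each, of 12246 when the same filter is set over all 9 arrays. The deficient cells came from Pparg-/-.LysMCre mice and the heterozygous cells from Pparg-/+.LysMCre mice, so both groups carry the Cre transgene, and both are female C57/BL6 mice aged 8 weeks. In these mice Cre is driven by the LysM promoter, which is active in myeloid cells, and the control macrophages, although labelled wild type, carry the Pparg-/+ genotype. Cells were sorted on the surface proteins SiglecF and CD11b, RNA was amplified as cDNA before biotin labelling, and the signal is therefore that of amplified RNA. The remaining 3 arrays hold macrophages labelled wild type from mice with the Pparg-/-.LysMCre label, called homozygous wild type below; they entered the normalization and the estimate of the spread, and their values are given side by side.

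PPARg, the product of Pparg, is a nuclear receptor that binds fatty acid ligands and acts with the receptor RXR on genes of lipid uptake, storage and oxidation. Alveolar macrophages live in the air spaces of the lung, where they take up and break down surfactant lipids. In mice they depend on the cytokine GM-CSF, which induces PPARg in their fetal precursors. Interstitial macrophages and monocyte-derived cells lie in the lung tissue and make more of the complement C1q chains, apolipoprotein E and the M-CSF receptor.

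The titles call the deficient samples "int pop" and the control samples "Mph", and do not explain the first term, so the 2 groups were titled as different populations. All deficient arrays were on slide 2 and all heterozygous arrays on slide 1, so slide and group cannot be told apart in anything below. The sources used here do not say whether the numbered samples of a group came from separate mice, so the spread behind the p-values may be technical. The median raw signal was 146.2, 159.6 and 184.2 on the deficient arrays, against 198.4, 217.0 and 290.3 on the heterozygous arrays, and every deficient array was dimmer than every heterozygous array. The part of this brightness in the gene differences was examined only as a covariate, under which 45 genes were called. Log2 signals correlated at 0.858 to 0.873 within the deficient group, 0.865 to 0.896 within the heterozygous group and 0.74 to 0.855 between the groups (Pearson, across genes, which are not independent). In sorted bulk samples, fewer cells of a type and less RNA per cell cannot be told apart.

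Of 21 markers of alveolar macrophages passing the filter, 6 were called lower in deficient cells (0.463% of all genes were), and 16 had a negative difference. Of these 6, Krt19, Krt79 and Cidec passed the filter through the heterozygous arrays alone, which set their direction. The next 3 are abundant ones that were not called. Chil3, a chitinase-like protein and one of the most abundant transcripts of these cells, read 12.36, 12.42 and 12.33 in deficient cells, against 12.51, 12.39 and 12.54 in heterozygous cells (log2 signal). Plet1, another of their surface markers, differed by 0.07 and Itgax, which encodes CD11c, by 0.58 (limma adjusted p = 0.911 and 0.253). The groups overlapped for Chil3 and Plet1, and the deficient arrays lay above the heterozygous arrays for Itgax. Siglecf and Itgam, which encode the sorted proteins, are no finding between the groups; Siglecf differed by -2.20 and Itgam did not pass the filter.

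Pparg itself was lower in cells labelled deficient. Its brightest probe read 7.57, 7.22 and 7.76 in deficient cells, against 9.45, 9.35 and 9.54 in heterozygous cells (log2 signal). All 3 deficient arrays lay below all 3 heterozygous arrays, yet all 6 were above background. The difference was -1.93 (SE 0.385), a 3.82-fold lower signal, at a limma adjusted p of 0.0488, just past the threshold of 0.05. An exact two-sided permutation test of 3 against 3 arrays gave p = 0.1, the smallest that 20 choices allow. The other 2 Pparg probes differed by -2.27 and -1.10 without passing (adjusted p = 0.122 and 0.233 over all probes with a symbol). The call ended without any 1 of the 6 arrays, or without homozygous wild type replicate 2 (adjusted p from 0.0681 to 0.16), while the difference stayed between -2.06 and -1.77 in these fits. The position of these probes against the deleted stretch is not known, so they do not check the labels. Lyz2, from which the Cre promoter is taken, did not pass the filter: its 3 probes were above background on 2, 2 and 1 of the heterozygous arrays and on 0 deficient arrays.

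Of 11233 genes, 163 (1.45%) differed between deficient and heterozygous cells at an adjusted p under 0.05. In deficient cells 111 were higher (0.988% of genes tested) and 52 were lower (0.463%). The called increases ran from 1.22 to 5.83 on the log2 scale with a median of 2.55, and the called decreases from -5.45 to -1.11 with a median of -1.91. For 42 of the increases all heterozygous arrays were not above background, and for 13 of the decreases all deficient arrays were not. Such genes have a bound in place of a fold. They passed the filter through the other group alone, which set their direction. The median difference over all genes was -0.12. Without regard to the test, the 3 deficient arrays lay above the 3 heterozygous arrays for 10.4% of genes and below them for 12.9%. Of 61 further passing probes of 45 called genes, 55 differed in the same direction and 25 of these were called. Over all 19745 passing probes, with or without a symbol, 257 (1.3%) were called, 197 higher (0.998%) and 60 lower (0.304%). The count of 163 genes was 60 without deficient replicate 1, 70 without heterozygous replicate 3, 76 without deficient replicate 2, 79 without heterozygous replicate 2 and 91 without heterozygous replicate 1. All 163 kept their direction in each of these fits. Fold sizes, and the bounds written as "at least", hold for the background correction used here. Of 21 named genes with a bound, all 21 gave a smaller fold without background correction, with normexp at an offset of 50 and in the authors' deposited normalized table, with a median fold of 2.32, 3.54 and 2.26, against 9.47 with the correction used. With median array signal as a covariate, 47 of the 75 called genes followed lost their call, Lat2, Acaa1b, Cyb561a3 and Mical3 among them, and without a filter on dim probes 28 did.

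**Figure D1:**
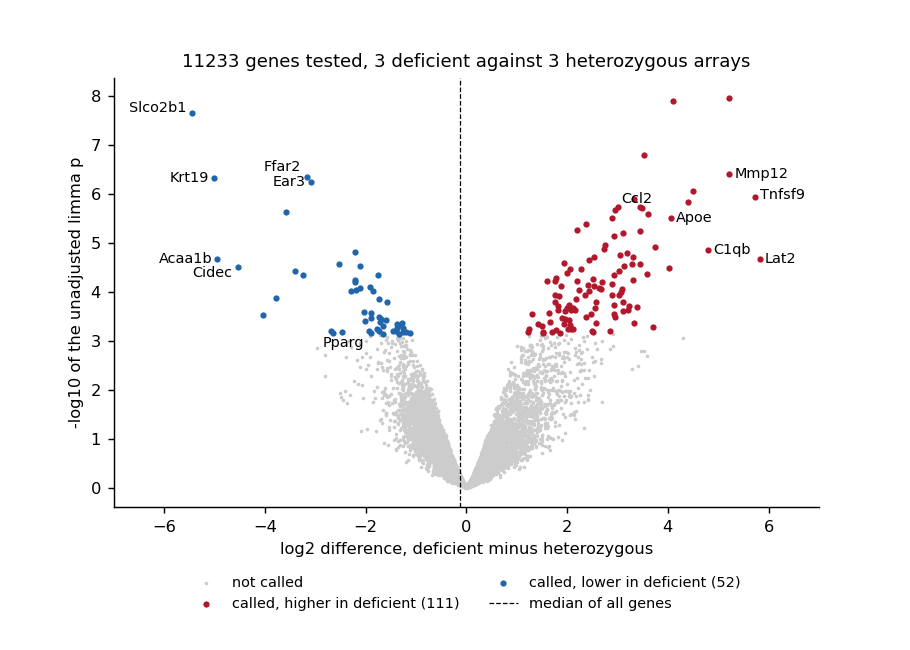
Each point is 1 of 11233 genes, with its log2 difference between deficient and heterozygous cells on the x axis and minus log10 of its unadjusted limma p on the y axis. The 111 genes called higher reach 5.83 and the 52 called lower reach -5.45; Pparg lies near the edge of the called genes, and the dashed line is the median of all genes.

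The largest increases were in Lat2, Tnfsf9, Mmp12 and AA467197. Lat2, an adaptor in signalling from Fc receptors and other immune receptors, read 11.71, 11.74 and 11.71 in deficient cells, against 7.24, 5.71 and 4.72 in heterozygous cells, a difference of 5.83 (SE 0.749, limma adjusted p = 0.00687). The deficient arrays were nearly equal while the heterozygous arrays spread widely, and the second Lat2 probe differed by 1.45 without passing. Mmp12, the macrophage elastase, read 11.74, 11.88 and 11.80 in deficient cells, against 6.04, 7.40 and 6.32 in heterozygous cells, 37.3-fold higher (adjusted p = 0.000755). Tnfsf9, a costimulatory ligand of the TNF family, was at least 32.3-fold higher (adjusted p = 0.00129) and AA467197 at least 27.6-fold higher (adjusted p = 7.17e-05), with all heterozygous arrays not above background for both. Without background correction these 2 genes were 8.50-fold and 5.55-fold higher. Ecm1, a secreted matrix protein, rose 21.2-fold and Spink2, a serine protease inhibitor, 22.7-fold (adjusted p = 0.00135 and 0.00108). Pmp22, a membrane protein known from myelin, rose 16.3-fold, Arrb1, the receptor adaptor beta-arrestin, 13.4-fold and Cd200r2, of the CD200 receptor family, 12.2-fold (adjusted p = 0.00803, 0.00516 and 0.00158). Gas7 rose 13-fold, but its arrays spread over more than a log2 unit in both groups, its second probe differed by 2.29 without passing (adjusted p = 0.26), and its call ended without any 1 of the deficient arrays, heterozygous replicates 2 or 3, or homozygous wild type replicates 1 or 2 (adjusted p from 0.0509 to 0.172). Among genes above background on all 6 arrays, Plk2, a stress-responsive kinase, rose 9.18-fold, Atp2a3, a calcium pump of the endoplasmic reticulum, 10.1-fold and Fstl1, a secreted glycoprotein, 8.62-fold (adjusted p = 0.00578, 0.0388 and 0.0272). The call of Atp2a3 ended without any 1 of the deficient arrays, heterozygous replicates 2 or 3, or homozygous wild type replicate 1 (adjusted p from 0.0534 to 0.139), and that of Fstl1 without any 1 of the 6 arrays (0.0700 to 0.109).

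The largest decreases were in Slco2b1, Krt19, Acaa1b and Cidec. Slco2b1, a transporter of organic anions, read 9.77, 9.94 and 9.68 in heterozygous cells and was not above background on any deficient array, at least 31.0-fold lower (limma adjusted p = 8.35e-05), against 6.46-fold for Slco2b1 without background correction. Krt19, a keratin carried by mouse alveolar macrophages, was at least 21.3-fold lower (adjusted p = 0.000755). Vstm2a, a secreted immunoglobulin-domain protein, was at least 8.46-fold lower, Mical3, which acts on actin, at least 6.93-fold lower, and Ffar2, which senses short-chain fatty acids, was lower by at least 6.12-fold (adjusted p = 0.00152, 0.00963 and 0.000755). In each of these 5 genes the deficient arrays were all not above background. Cyb561a3, a lysosomal iron reductase, fell 10.5-fold and was above background on all 6 arrays (adjusted p = 0.00862). Syne2, which links the nucleus to the cytoskeleton, was at least 11.7-fold lower (adjusted p = 0.0301), with a second probe at -2.28 that did not pass, and its call ended without any 1 of the 6 arrays (adjusted p from 0.0701 to 0.122).

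**Figure D2:**
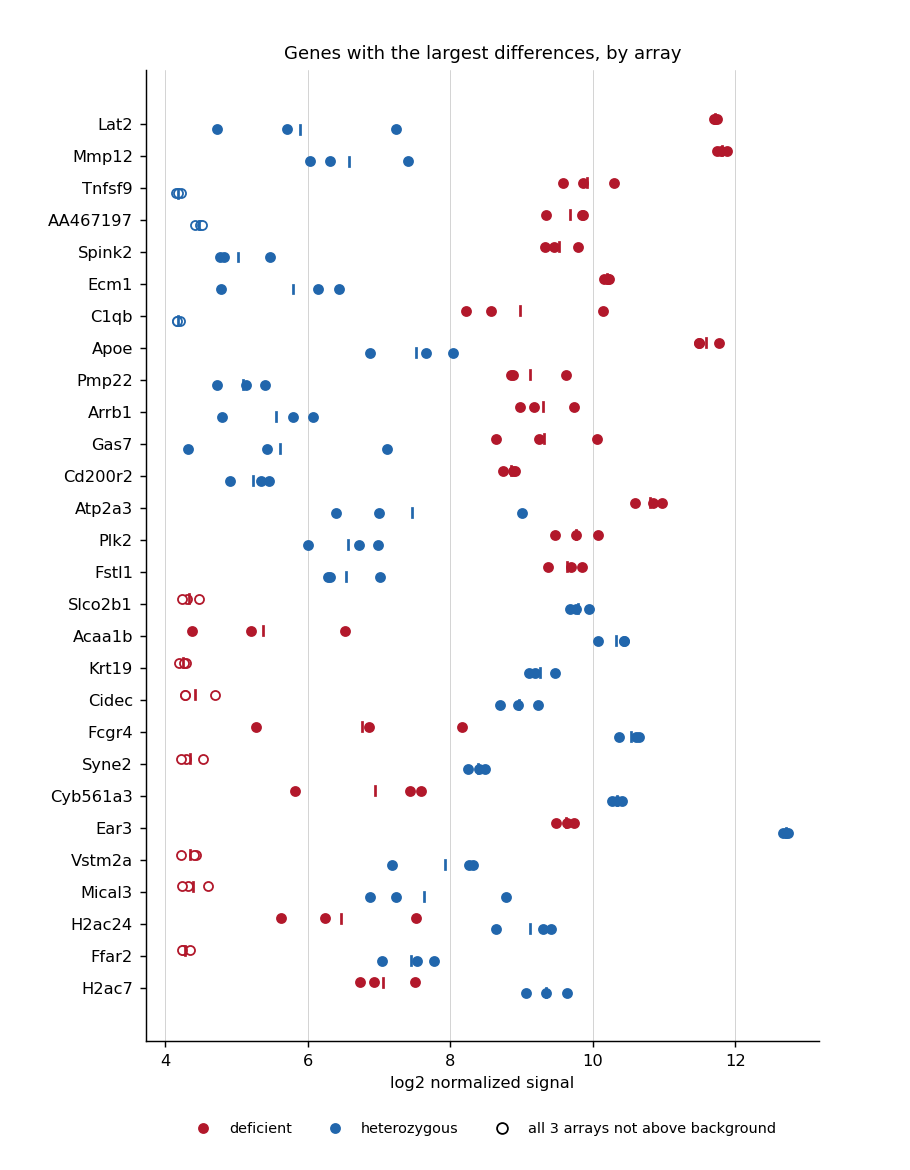
Log2 normalized signal of each array for the genes with the largest increases and decreases, deficient above heterozygous in each row; short lines are group means and open symbols mark groups with all 3 arrays not above background. The 2 groups do not overlap in any row, which the choice of these genes required.

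Genes of lipid handling moved in both directions. In fatty acid oxidation, of 26 genes passing the filter 1 fell and 0 rose, against 0.463% and 0.988% of all genes. The median was -0.38, against -0.12 over all genes. In 8 of the 26 the deficient arrays lay below the heterozygous arrays and in 1 above, against 12.9% and 10.4% of all genes. The summed signal of the list ran from 9786 to 10361 in deficient cells and from 15103 to 15578 in heterozygous cells (linear scale), without overlap. The 1 called was Acaa1b, a peroxisomal thiolase, at 5.21, 4.38 and 6.52 in deficient cells, against 10.08, 10.44 and 10.44 in heterozygous cells, 30.9-fold lower (limma adjusted p = 0.00687). The deficient arrays spread over 2 log2 units and stayed far below the heterozygous arrays. In the list of fatty acid uptake and lipid droplets, 1 of 19 fell: Cidec, a protein that enlarges lipid droplets, at least 17.4-fold lower (adjusted p = 0.00796). Cidec was not above background on any deficient array. It passed the filter through the heterozygous arrays alone, which set its direction, so this call lends the count no weight. Hilpda, a lipid droplet protein induced by hypoxia, differed by 1.08 in the opposing direction without passing (adjusted p = 0.0823). Of 11 genes of cholesterol efflux and apolipoproteins 1 rose. Apoe, the apolipoprotein that carries cholesterol out of macrophages, read 11.78, 11.49 and 11.50 in deficient cells, against 6.87, 8.04 and 7.67 in heterozygous cells, 16.7-fold higher (adjusted p = 0.00179). Every deficient array exceeded every heterozygous array by more than 3 log2 units. Of 18 genes of sterol and fatty acid synthesis none passed, with a median of -0.15. Among 10 receptors and cofactors of the PPAR, RXR and LXR family Pparg alone passed; Ppard, a related receptor, differed by 0.97 (adjusted p = 0.249).

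Markers of alveolar macrophage identity were lower in part. Of 21 passing the filter, 6 fell and 0 rose, against 0.463% of all genes called lower, and 16 differences were negative (median -0.62). In 12 the deficient arrays lay below the heterozygous arrays, against 12.9% of all genes. Siglecf is 1 of the 6 and encodes a protein the cells were sorted on, so it is no finding. Krt19, Krt79 and Cidec, 3 of the 6, were not above background on any deficient array. They passed the filter through the heterozygous arrays alone, which set their direction, so these 3 calls lend the counts no weight. Besides Siglecf, Krt19 and Cidec, those called were the keratin gene Krt79, lower by at least 4.15-fold (limma adjusted p = 0.0076), Perp, a desmosome-linked membrane protein (-2.20, SE 0.272, adjusted p = 0.00578), and Ear10. Ear3 and Ear10 belong to the eosinophil-associated ribonucleases, a mouse family with close copies that 1 probe may read together. Ear3 read 9.48, 9.73 and 9.64 in deficient cells, against 12.74, 12.71 and 12.67 in heterozygous cells, 8.51-fold lower (adjusted p = 0.000819). Both groups were tight, and a second Ear3 probe was also called at -2.16. Ear10 differed by -2.22 (adjusted p = 0.0111), a call that ended without heterozygous replicate 2 (0.0541). The third family member that passed the filter, Rnase2a, differed by 1.83 without passing the test (adjusted p = 0.0792). Marco, a scavenger receptor, differed by -2.11, Ctsk, a cysteine protease, by 1.00 and Slc7a2, an arginine transporter, by 1.09 (adjusted p = 0.062, 0.0644 and 0.0853). Another Slc7a2 probe was called higher. The call of Siglecf ended without any 1 heterozygous array (0.0542 to 0.0593).

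Among markers of monocytes and interstitial macrophages more rose than fell. Of 19 passing the filter, 5 rose and 1 fell (median 0.48), against 0.988% and 0.463% of all genes, and in 10 the deficient arrays lay above the heterozygous arrays, against 10.4% of all genes. Besides Mmp12 and Apoe, C1qb, a chain of complement C1q, was at least 16.9-fold higher (limma adjusted p = 0.00542), at 10.14, 8.22 and 8.57 in deficient cells and not above background on any heterozygous array. Trem2, a lipid-sensing receptor of macrophages, read 8.98, 8.90 and 9.41 in deficient cells, against 6.75, 4.81 and 5.79 in heterozygous cells (3.31, SE 0.479, adjusted p = 0.0111). Csf1r, the M-CSF receptor, read 7.92, 7.94 and 8.15 in deficient cells, against 6.40, 5.30 and 4.62 in heterozygous cells (2.57, SE 0.426, adjusted p = 0.0208). The groups did not overlap for any of these genes. Its ligand Csf1 was at least 6.28-fold higher (adjusted p = 0.00659), and together they were the 2 of 11 genes of M-CSF and GM-CSF signalling that rose. C1qb and Csf1 were not above background on any heterozygous array. They passed the filter through the deficient arrays alone, which set their direction, so these calls lend the counts no weight. Fcgr4, an activating IgG receptor, ran opposite to the list: 6.85, 5.28 and 8.16 in deficient cells, against 10.61, 10.37 and 10.65 in heterozygous cells, 13.7-fold lower (adjusted p = 0.0179). Among 17 macrophage transcription factors Irf4 rose (3.08, SE 0.479, adjusted p = 0.0145) and 14 had a positive difference (median 0.26). The calls of Trem2 (0.0563 without deficient replicate 1), Csf1r (without any deficient array or heterozygous replicates 2 or 3, 0.0588 to 0.0823), Irf4 (without deficient replicates 1 or 2 or heterozygous replicates 1 or 3, 0.0612 to 0.0774) and Fcgr4 (without deficient replicate 1 or any heterozygous array, 0.0613 to 0.0843) ended in these fits.

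Among 17 chemokines 2 rose and 0 fell (median 0.40), against 0.988% of all genes called higher, and in 10 the deficient arrays lay above the heterozygous arrays, against 10.4% of all genes. Ccl2, which draws monocytes, read 8.06, 7.42 and 7.79 in deficient cells and was not above background on any heterozygous array, at least 6.95-fold higher (limma adjusted p = 0.0015). Ccl9 read 9.54, 9.10 and 9.49 in deficient cells, against 7.20, 8.07 and 7.08 in heterozygous cells (1.93, adjusted p = 0.0403). Both were separated from the heterozygous arrays, Ccl9 by about a log2 unit. Of 14 interleukins and TNF family ligands, Tnfsf9 and Il6 rose (median 0.42). Il6 read 10.64, 10.24 and 10.54 in deficient cells, against 7.94, 8.89 and 7.12 in heterozygous cells (2.49, SE 0.496, adjusted p = 0.0488). In NF-kB signalling and its feedback genes the median was 0.66, the highest of the lists with 5 or more genes, and in 11 of 18 the deficient arrays lay above, but 1 passed, Birc3, which restrains apoptosis (at least 4.23-fold higher, adjusted p = 0.00689). Ptgs2, the inducible cyclooxygenase, was the 1 of 15 genes of eicosanoid synthesis that rose (3.40, SE 0.580, adjusted p = 0.0244); Ltc4s, which makes leukotriene C4, differed by -1.60 without passing (0.0591). Of 16 Toll-like receptors and adaptors, Tlr7 and Tlr9, which sense nucleic acids, rose (1.81 and at least 3.99-fold, adjusted p = 0.0237 and 0.0415). Ccl2, Tnfsf9, Birc3 and Tlr9 were not above background on any heterozygous array. They passed the filter through the deficient arrays alone, which set their direction, so these calls lend the counts no weight. Calls ended for Il6 without any deficient array, heterozygous replicates 1 or 3 or homozygous wild type replicate 2 (0.0701 to 0.169), for Ccl9 without any deficient array, heterozygous replicates 1 or 3 or homozygous wild type replicate 1 (0.0524 to 0.16), for Ptgs2 and Tlr7 without any 1 of the 6 arrays (0.0638 to 0.0983 and 0.0612 to 0.115), and for Tlr9 without deficient replicates 1 or 3, any heterozygous array or homozygous wild type replicate 2 (0.0609 to 0.146). The call of Tlr9 also ended under 9 of 13 other settings, among them no background correction (0.60, adjusted p = 0.0564) and the authors' deposited normalized table (0.54, adjusted p = 0.083). That of Il6 ended under 5 of 14, among them the filter on all 6 arrays and the replicate block (adjusted p up to 0.26).

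Of 9 chemokine and attractant receptors passing the filter, 2 rose and 2 fell, against 0.988% and 0.463% of all genes. C3ar1, the receptor of the complement fragment C3a, was at least 5.06-fold higher and Ptafr, the receptor of platelet-activating factor, read 10.14, 9.94 and 10.15 in deficient cells, against 7.80, 8.14 and 8.27 in heterozygous cells (limma adjusted p = 0.00144 and 0.0095). Ffar2 and Fpr2, a receptor of formylated peptides, were lower; Fpr2 read 8.31, 9.14 and 8.86 in deficient cells, against 10.69, 10.72 and 10.97 in heterozygous cells (-2.02, adjusted p = 0.0279). The call of Fpr2 ended without any 1 of the 6 arrays (0.0573 to 0.121) and that of Ptafr without deficient replicate 1 (0.0506). C3ar1 and C1qb were the 2 of 13 complement genes that rose. Both were not above background on any heterozygous array and passed the filter through the deficient arrays alone. In the Fc receptor list Lat2 rose and Fcgr4 fell, of 12. Colec12, a scavenger receptor with a collagen stalk, was at least 4.70-fold higher (adjusted p = 0.00179), the 1 called of 18 scavenger and lectin receptors. Colec12 passed the filter through the deficient arrays alone and Ffar2 through the heterozygous arrays alone, which set their direction.

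Of 12 matrix proteases and inhibitors, Mmp12, Mmp8, Plau and Adam15 rose and 0 fell, against 0.988% and 0.463% of all genes. Of the 12 differences 7 were positive and 5 negative (median 0.36). Mmp8, a collagenase, was at least 7.81-fold higher (limma adjusted p = 0.00144). It passed the filter through the deficient arrays alone, which set its direction, so this call lends the count no weight. Plau, urokinase, read 11.16, 10.79 and 11.02 in deficient cells, against 8.67, 9.22 and 8.48 in heterozygous cells (2.19, adjusted p = 0.0111). Adam15, a membrane metalloproteinase, differed by 2.94 at its brightest probe (adjusted p = 0.0293), while its other 3 probes gave 2.45, 1.37 and -0.13. The last of these is the one taken when probes must be above background on all 6 arrays, and there the direction reverses. Of 16 genes of apoptotic cell clearance, 9 with a positive and 7 with a negative difference (median 0.11), 2 rose: Mfge8, which bridges dying cells to phagocytes, at 11.84, 11.74 and 11.78 in deficient cells, against 9.29, 8.33 and 9.85 in heterozygous cells (2.63, adjusted p = 0.0133), and Cd300a, an inhibitory receptor for lipids of dying cells (2.04, adjusted p = 0.0358). The deficient arrays were tight and above the heterozygous ones for both. Calls ended for Plau without deficient replicate 1 or heterozygous replicate 3 (0.0580 and 0.0589), for Mfge8 without deficient replicates 1 or 2 (0.0550 to 0.0649), for Adam15 without any deficient array or heterozygous replicate 1 (0.0612 to 0.129) and for Cd300a without any deficient array, heterozygous replicates 1 or 3 or homozygous wild type replicate 2 (0.0569 to 0.122).

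Single genes rose in the lists of stress and metabolism, where 0.988% of all genes were called higher. Slc7a11, the cystine importer, read 10.65, 10.55 and 10.69 in deficient cells, against 7.70, 8.26 and 6.61 in heterozygous cells (3.11, SE 0.515, limma adjusted p = 0.0208); of its 4 other probes 2 were also called higher. Gpx3, a secreted glutathione peroxidase, rose by 2.88 (adjusted p = 0.0163), and with Slc7a11 made the 2 of 31 antioxidant genes that rose (median -0.02). Slc7a11 and Asns, asparagine synthetase (at least 2.69-fold higher, adjusted p = 0.0291), were the 2 of 32 genes of unfolded protein and amino acid stress (median 0.15). Asns passed the filter through the deficient arrays alone, which set its direction. Slc2a1, the glucose transporter, rose by 2.00 (adjusted p = 0.0247), the 1 called of 24 genes of glycolysis and hypoxia (median 0.05). Ier3 and Hspa1a, an immediate early gene and a heat shock protein that also respond to tissue handling, rose by 1.77 and 1.82 (adjusted p = 0.0111 and 0.0266), the 2 called of 30. In that list the median was 0.23, 22 of 30 differences were positive, and in 12 the deficient arrays lay above the heterozygous arrays, against 10.4% of all genes. Its summed signal ran from 41933 to 46001 in deficient cells and from 30673 to 36151 in heterozygous cells (linear scale), without overlap, and the part of handling in the other differences was not tested. The other 2 Hspa1a probes differed by 0.10 and 0.99 without passing. The 1 passing probe of Rplp0 was at least 5.55-fold higher (adjusted p = 0.00303), at 7.87, 7.28 and 6.97 in deficient cells. It was not above background on any heterozygous array and passed the filter through the deficient arrays alone, which set its direction. Whether the probe reads the Rplp0 transcript as a whole was not tested. Rplp0 was the 1 called of 53 ribosomal protein genes, 43 of which had a positive difference (median 0.13), a family with many near-identical pseudogene copies. Calls ended for Slc7a11 and Hspa1a without any deficient array or heterozygous replicates 1 or 3 (0.0580 to 0.0823 and 0.0701 to 0.118), for Slc2a1 without any deficient array or heterozygous replicates 2 or 3 (0.0578 to 0.0994), for Gpx3 without any deficient array or heterozygous replicate 2 (0.0504 to 0.0707), for Asns without deficient replicates 1 or 3 or any heterozygous array (0.0655 to 0.122) and for Ier3 without deficient replicate 1 or heterozygous replicates 2 or 3 (0.0542 to 0.0580). The call of Asns also ended under 7 of 13 other settings, among them no background correction (0.42, adjusted p = 0.106) and the authors' deposited normalized table (0.38, adjusted p = 0.186).

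Several of the larger lists held no called gene, among them the respiratory chain (53 genes, median -0.08), lysosomal hydrolases and V-ATPase (45, 0.19), the TGF-beta pathway (19, -0.08), alternative activation and arginine metabolism (14, -0.12), MHC class II and costimulation (12, 0.34), leukocyte integrins (12, 0.16) and interferon-stimulated genes (11, 0.28). Among lysosomal genes 17 of 45 had deficient arrays above the heterozygous ones, against 10.4% of all genes. Of 11 cyclin-dependent kinase inhibitors and p53 targets none passed (median -0.21). Cd86, a costimulator, differed by 1.46 and Itga5, an integrin chain, by 2.24 (limma adjusted p = 0.0825 and 0.0644).

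**Figure D3:**
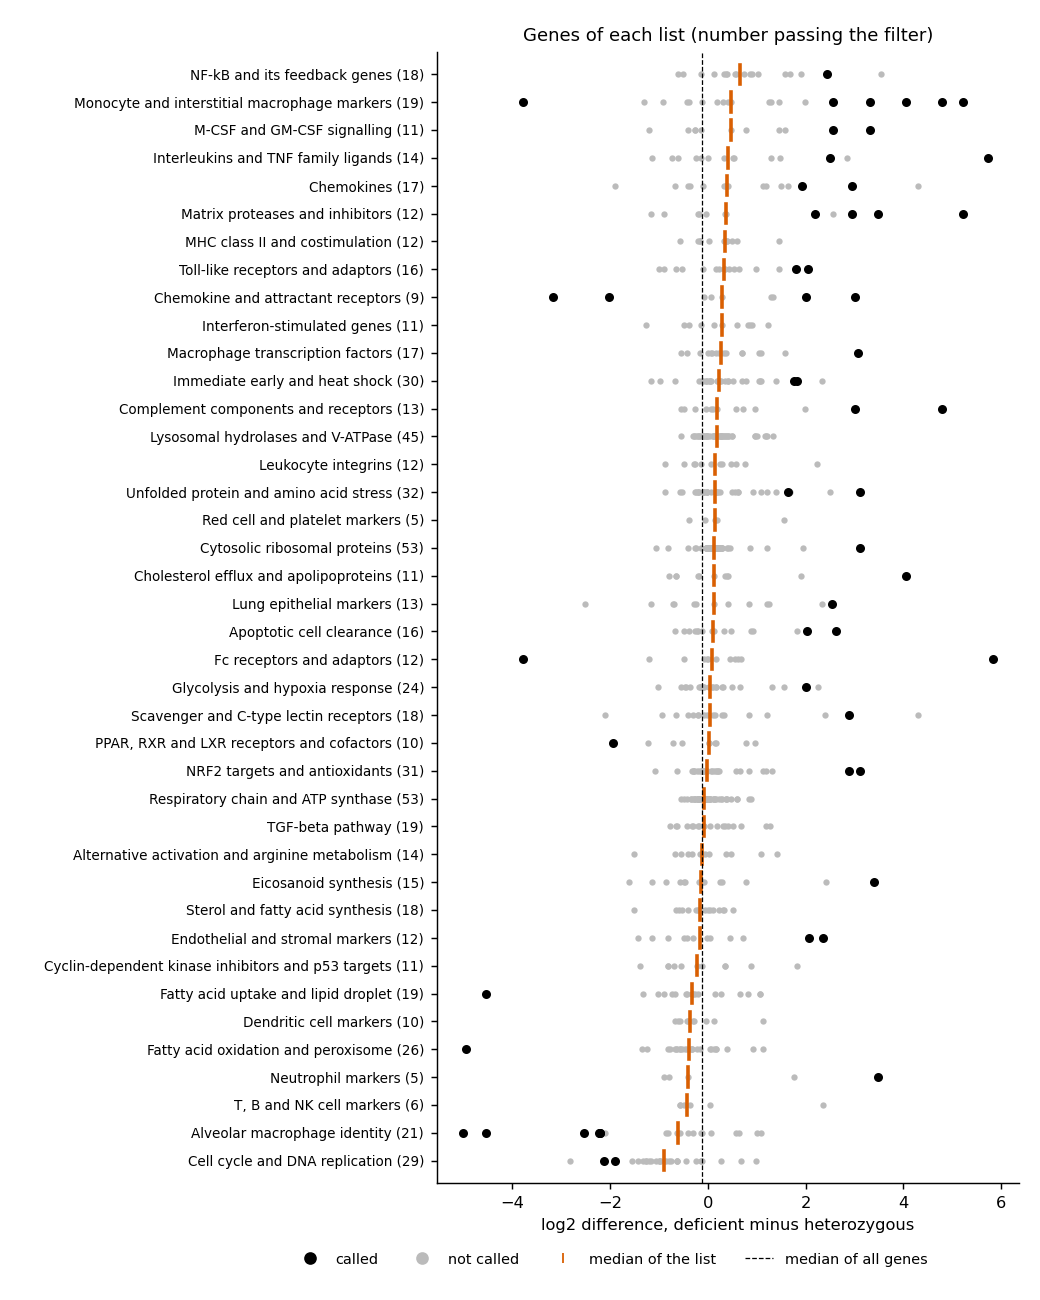
Log2 differences of the genes of each list with at least 5 genes passing the filter, black where called, with the median of the list in orange and the median of all genes as a dashed line. Medians run from -0.90 for cell cycle genes to 0.66 for NF-kB and its feedback genes.

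Cell cycle genes had the lowest median of these lists, -0.90. Of 29 genes of the cell cycle and DNA replication, 2 fell and 0 rose, against 0.463% and 0.988% of all genes. In 26 the difference was negative, and in 13 the deficient arrays lay below the heterozygous arrays, against 12.9% of all genes. Rrm2, a subunit of ribonucleotide reductase, read 5.91, 6.96 and 7.06 in deficient cells, against 8.67, 8.33 and 8.60 in heterozygous cells (-1.89, SE 0.337, limma adjusted p = 0.0293). Stmn1, which destabilizes microtubules, differed by -2.12 (adjusted p = 0.0133). Both groups were separated for these genes, and the second Rrm2 probe differed by -1.85 without passing (adjusted p = 0.0891). Calls ended for Rrm2 without deficient replicates 1 or 2 or any heterozygous array (0.0673 to 0.115) and for Stmn1 without deficient replicate 2 or heterozygous replicates 1 or 3 (0.0514 to 0.0603).

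Of replication-dependent histone genes, which are expressed mainly in S phase, 13 were called lower in deficient cells. The family was chosen after its values were seen, so its counts are a description. Of 45 genes passing the filter, of 55 on the array, 13 were called lower and 0 higher, 43 had a negative difference, with a median of -1.46 and a range from -2.68 to 0.19. Of all genes 0.463% were called lower. In 34 of the 45 the deficient arrays lay below the heterozygous arrays, against 12.9% of all genes. H2ac7 read 6.94, 7.51 and 6.74 in deficient cells, against 9.64, 9.34 and 9.06 in heterozygous cells (-2.28, limma adjusted p = 0.0142). H2bc21 read 7.27, 7.17 and 7.80 in deficient cells, against 9.32, 9.10 and 9.58 in heterozygous cells (-1.92, adjusted p = 0.0133). H3c10 read 7.96, 8.47 and 7.86 in deficient cells, against 9.81, 9.62 and 10.05 in heterozygous cells (-1.73, adjusted p = 0.0184). The 2 groups did not overlap for any of these genes. Called genes numbered 4 of 13 in the H2A class, 3 of 10 in H2B, 4 of 8 in H3 and 2 of 11 in H4, and 0 of 3 linker histones. Histone genes are near-identical copies, so 1 probe may read several and the 45 are not independent. Each of the 13 calls ended in at least 3 of the 9 fits that left out 1 array, among them in every case the fit without deficient replicate 1 and that without heterozygous replicate 1 (adjusted p up to 0.179 over the fits that ended a call). The calls of H2bc21 and H3c10 also ended with the probes of a gene averaged. With median array signal as a covariate, the call ended for every one of the 13 except H2ac22. H2ac22 was not above background on any deficient array and passed the filter through the heterozygous arrays alone, which set its direction. Over the settings that kept all arrays of both groups, the H2bc21 difference reached -0.42 (limma adjusted p up to 0.471).

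**Figure D4:**
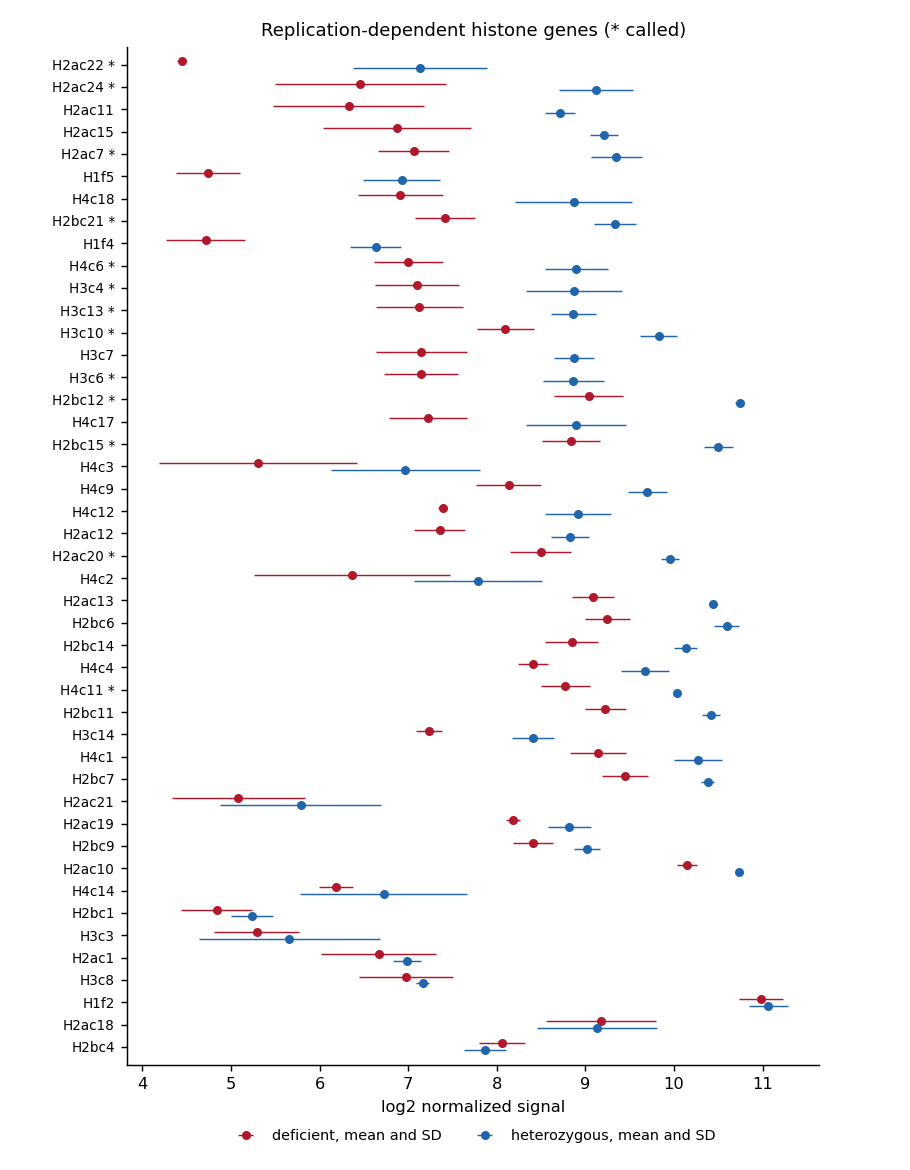
Group means with SD (n = 3 arrays) of log2 signal for 45 histone genes, deficient above heterozygous in each row, ordered by their difference; an asterisk marks the 13 called. The deficient mean is lower in 43 rows.

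The bases before the transcription start of a called histone gene of each class with calls are printed, from RefSeq (GRCm38.p6), 5′ to 3′ on the gene's strand. Each is the gene with the smallest limma adjusted p in its class among those with a promoter entry. Capitals mark CCAAT or the octamer ATTTGCAT on either strand.
H2ac7 (chr13:23574261-23574380, plus strand): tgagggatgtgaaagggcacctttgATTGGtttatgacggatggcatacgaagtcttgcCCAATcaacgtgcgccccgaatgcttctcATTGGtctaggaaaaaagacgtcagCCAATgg
H2bc12 (chr13:22035701-22035820, plus strand): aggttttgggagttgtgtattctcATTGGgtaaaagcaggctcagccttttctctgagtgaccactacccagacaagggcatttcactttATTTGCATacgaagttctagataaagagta
H3c10 (chr13:21717508-21717627, plus strand): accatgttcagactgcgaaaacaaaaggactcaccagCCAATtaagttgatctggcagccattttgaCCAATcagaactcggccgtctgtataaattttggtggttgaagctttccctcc
H4c6 (chr13:23551669-23551788, minus strand): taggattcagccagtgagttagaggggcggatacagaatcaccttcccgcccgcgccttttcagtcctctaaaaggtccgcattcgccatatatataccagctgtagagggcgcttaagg
CCAAT stood within 250 bases before the start in 34 of 42 histone promoters (81%), against 33.8% of all 32851 promoters and 34.3% of those of tested genes. The octamer was in 7 (16.7%), against 1.6% of all and 1.32% of tested genes, and TATAAA in 18 (42.9%), against 12.4% and 7.81%. Windows of neighbouring histone genes can overlap on opposite strands, as for H2ac12 and H2bc12 or H2ac1 and H2bc1. The same match then counts for both genes, so these promoters are not independent. No match is marked for H4c6 in the stretch shown.

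Promoters of called genes were searched for 10 patterns on both strands, all chosen with results known. They were 3 forms of the NF-kB motif, a PPAR-RXR repeat, AP-1, CRE, a CEBP-ATF element, the octamer, CCAAT and TATAAA. The NF-kB motif GGGANTTTC was in 3 of 115 promoters of 86 genes called higher (2.61%), those of Csf1, Il6 and Gpr84, and in 1 of 49 of 38 genes called lower (2.04%), against 0.941% of all promoters and 0.856% of those of tested genes. This form was taken after a form with a further C (1.74% of higher, 0% of lower, 0.356% of all, 0.408% of tested) and a wider one with any 3 bases in its middle (6.96%, 4.08%, 3.86% and 4.61%), both of which overlap it. The PPAR-RXR repeat, 2 copies of AGGNCA with 1 base between, was in 0 promoters of called genes, against 0.338% of all and 0.311% of tested genes. TGANTCA (AP-1) was in 9.57% of promoters of genes called higher and 6.12% of genes called lower, against 6.75% of all and 5.14% of tested genes. TGACGTCA (CRE) was in 1.74% and 2.04%, above the 1.55% of all promoters and below the 2.42% of tested genes. TGATGCAA was in 1.74% and 0%, against 0.791% of all and 0.671% of tested genes. The octamer was in 2.61% and 4.08%, against 1.6% and 1.32%, and CCAAT in 26.1% and 42.9%, against 33.8% and 34.3%. TATAAA was in 7.83% of promoters of genes called higher and 22.4% of genes called lower, against 12.4% of all and 7.81% of tested genes. The genes called lower include the called histone genes, with 12 of the 49 promoters. Of these 12, 7 held TATAAA, 10 CCAAT and 2 the octamer, against 11, 21 and 2 of all 49. The bases before the start of 3 genes called higher follow, chosen as inducible genes of macrophages with a match, in capitals (NF-kB in Il6 and, on the other strand, Csf1, and AP-1 in Mmp12, which has 2 promoter entries).
Il6 (chr5:30012994-30013113, plus strand): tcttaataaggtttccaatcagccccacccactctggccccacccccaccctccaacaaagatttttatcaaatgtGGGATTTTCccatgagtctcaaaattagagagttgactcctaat
Csf1 (chr3:107760470-107760669, minus strand): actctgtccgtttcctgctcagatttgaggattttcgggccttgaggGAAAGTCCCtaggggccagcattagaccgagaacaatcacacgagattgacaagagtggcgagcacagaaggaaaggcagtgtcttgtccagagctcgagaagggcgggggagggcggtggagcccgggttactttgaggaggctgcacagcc
Mmp12 (chr9:7347254-7347373, plus strand): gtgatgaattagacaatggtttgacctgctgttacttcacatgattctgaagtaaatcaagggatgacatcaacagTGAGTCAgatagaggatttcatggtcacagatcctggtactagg
A match is no evidence that a factor binds there, and the window leaves out enhancers.

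Markers of other lung cell types were called in 4 cases, all higher, where 0.988% of all genes were called higher. Hopx, a transcriptional cofactor found in flat alveolar cells, read 8.57, 8.52 and 9.02 in deficient cells, against 6.33, 5.89 and 6.30 in heterozygous cells (2.53, limma adjusted p = 0.00659), the 1 called of 13 epithelial markers (median 0.12). The surfactant gene Sftpc overlapped between the groups (-0.24, adjusted p = 0.883), Epcam differed by -2.51 without passing (0.192), and the summed epithelial signal ran from 4104 to 5037 in deficient cells and from 2812 to 3390 in heterozygous cells (linear scale). Vwf and Sparc, of endothelial and stromal cells, rose by 2.36 and 2.07 (adjusted p = 0.0164 and 0.0462), of 12 markers with a median of -0.17; Pecam1 differed by -1.14 (0.343) and Col1a2 and Col3a1 were not above background on any of the 6 arrays. The summed signal of this list ran from 1300 to 1778 in deficient cells and from 1398 to 1503 in heterozygous cells. Of 16 neutrophil markers 5 passed the filter and Mmp8 rose, with 2 differences positive and 3 negative (median -0.41). S100a9, Elane, Ltf and Ngp were not above background on any of the 6 arrays. The summed signal of the 15 on the array, above background or not, ran from 656.7 to 709.7 in deficient cells and from 492 to 591.1 in heterozygous cells. This sum includes Mmp8, at 7.89, 8.04 and 7.67 in deficient cells, against 4.48, 4.32 and 4.33 in heterozygous cells (log2 signal), where it was not above background. Mmp8 passed the filter through the deficient arrays alone, which set its direction. The sums were not taken without Mmp8, so they show no rise in the other neutrophil markers. No marker was called among 4 of eosinophils, mast cells and basophils, 10 of dendritic cells, 6 of T, B and NK cells and 5 of red cells and platelets (medians -0.10, -0.36, -0.43 and 0.14). The part of such cells in the differences above was not tested. Calls ended for Vwf without any deficient array or heterozygous replicate 2 (0.0507 to 0.0793) and for Sparc without any 1 of the 6 arrays or homozygous wild type replicates 1 or 3 (0.0501 to 0.159). The call of Sparc also ended under 8 of 13 other settings (adjusted p up to 0.137).

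The homozygous wild type arrays share their slide with the heterozygous arrays and their genotype label with the deficient cells, and they enter other comparisons with both groups, so only their values are set beside the others. Pparg read 9.71, 9.15 and 8.13 there, Ear3 12.74, 12.16 and 12.03, and Slco2b1 9.59, 8.93 and 8.38 (log2 signal). Mmp12 read 9.95, 10.98 and 11.11, Apoe 9.02, 10.13 and 10.35, and Slc7a11 8.33, 9.65 and 10.08. Mmp12, Apoe and Slc7a11 lay between the deficient and heterozygous groups on all 3 arrays. Csf1 read 4.27, 4.33 and 5.76, near the heterozygous level on the first 2 arrays.

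**Figure D5:**
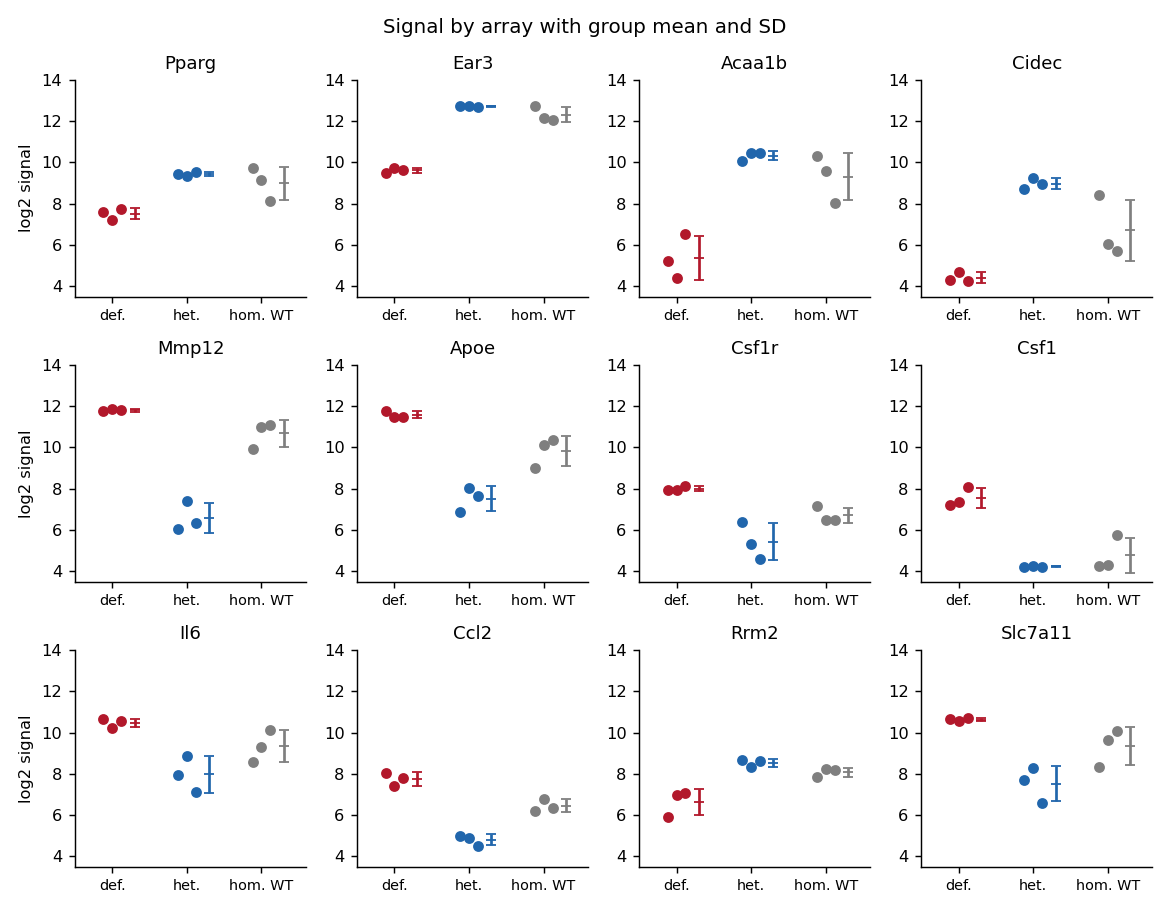
Log2 signal of 12 genes on each array (points) with group mean and SD (n = 3) for deficient, heterozygous and homozygous wild type cells. Deficient and heterozygous arrays do not overlap in any panel, and homozygous wild type arrays lie between them for Mmp12 and Apoe.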

How the data were processed

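Per the labels' protocols, RNA of sorted lung macrophages was amplified, biotin-labelled and hybridised to Illumina beadchips, 3 arrays a group. The authors deposited a probe intensity table, used here with its signals not normalized between arrays, and a second, normalized intensity table used as an alternative. The deposited detection p-values of both tables follow a smooth model of the signal and are not ranks among negative-control beads, so the background estimated from them is approximate. Intensities of all 9 arrays were background-corrected in limma 3.58.1 (R 4.3.3) by normexp (offset 16), taking the control mean and spread from those p-values, quantile normalized and log2 transformed. Only probes that 3 or more of the 6 compared arrays showed above background, at a detection p under 0.05, were kept, and each gene was read by its passing probe with the highest mean. Of 46237 probes 19745 passed, 15528 of them with a symbol, updated through RefSeq gene IDs or accessions where these matched.

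A model with 1 mean per group was fitted with lmFit and eBayes, and p-values were adjusted by Benjamini-Hochberg over 11233 genes and called under 0.05. The fit and the adjustment were run on simulated data, which left out background correction, normalization, the filter and the choice of probe. "At least N-fold" is given where all arrays of a group were not above background, against the lowest signal above background on each array. Summed signals of a list cover its genes on the array, whether or not they passed the filter. Genes named are Pparg and Lyz2, the 12 largest called changes each way without overlap between the groups (predicted genes and clones passed over), the 5 largest above background on all 6 arrays, up to 6 called or otherwise 3 leading members of each gene list with up to 2 of the opposing sign, defining markers of cell types, and genes said to be chosen after their values were seen. The comparison, the gene lists, the promoter patterns and the histone family were chosen with earlier results of these data known. Alternatives covered background correction, normalization, the filter, the choice of probe, the arrays fitted, the variance prior, array brightness, a replicate block and leaving out each array. The number of arrays limits the precision.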

Additional observations from a re-analysis of the deposited data

Results flagged for a closer look

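Probes without a gene symbol lie outside the gene-level comparison. Fitted with all passing probes, 24 of the 4217 such probes were higher in deficient than in heterozygous cells and 8 were lower (limma, adjusted p under 0.05 over 19745 probes). They are unnamed here and no cause was tested.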

How the results depend on the processing

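The 163 calls, 111 higher and 52 lower, moved with the background estimate, the filter and the brightness of the arrays. Calls in total, higher and lower were 356, 234 and 122 without background correction, 308, 211 and 97 with normexp at an offset of 50, 327, 217 and 110 in the authors' normalized table, 383, 258 and 125 with a trended robust prior, 68, 38 and 30 with probes above background on all 6 arrays, and 45, 34 and 11 with median array signal as a covariate. Testing every probe gave 179 higher. Leaving out 1 array gave 60 to 175 in total, 44 to 127 higher and 15 to 53 lower. Of the 163 genes, 43 stayed called with the covariate, and 57 without deficient replicate 1. Without normalization between arrays the median of all genes was -0.385 and under median scaling -0.257. The median size of the 75 differences followed was 2.89, against 1.38 without background correction, 1.80 at an offset of 50 and 1.33 in the authors' table (log2). The Pparg difference missed the threshold without normalization between arrays (-2.05), under median scaling (-1.92), without a filter (-1.93), with the filter over 9 arrays (-1.93), with probes averaged (-1.77), with the covariate (-2.20) and at its other 2 probes (-2.27 and -1.10), and leaving out 1 array gave -2.06 to -1.77. Adam15 turned to -0.13 with probes above background on all 6 arrays. Same-numbered deficient and heterozygous arrays correlated at 0.136, 0.00124 and 0.204 in their deviations, and unlike-numbered ones at -0.2 to 0.0701. These values do not settle whether the numbers mark pairs. They were not taken as pairs because they were read as counting samples within a group. Deficient and homozygous wild type titles carry the same Hom numbers, and whether these share mice is not given. The main fit treats all arrays as independent. With the replicate block 122 genes were called, 89 higher and 33 lower, and Pparg stood at -1.93 (limma adjusted p = 0.0797). The slide could not be fitted as a block, since each group lies on 1 slide. Of 75 called genes followed, histones included, 31 stayed called whichever array was left out. Under the other settings that could be run for them 26 stayed called, 6 under 14 settings and 20 under 13, since those 20 did not pass the filter on all 6 arrays, and 21 of 42 list medians kept their sign throughout. Causes of these changes were not tested.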

Other observations

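Several called genes outside the lists were chosen here after their values were seen. Igf1, a growth factor that macrophages secrete, read 10.51, 10.39 and 10.32 in deficient cells, against 8.21, 8.80 and 8.85 in heterozygous cells (log2 signal), 3.45-fold higher (limma adjusted p = 0.0108). Papss2, which makes the sulfate donor of the cell, was at least 11.9-fold higher, Anpep, the aminopeptidase CD13, at least 7.21-fold higher and Aqp9, a channel for water and glycerol, at least 6.82-fold higher, with all heterozygous arrays not above background. Gpr84, a receptor for medium-chain fatty acids, was at least 4.43-fold higher (adjusted p = 0.0112). The transcriptional repressor Bcl6 rose 5.32-fold (adjusted p = 0.0124). Among decreases, Pnpla8, a phospholipase, read 7.14, 7.17 and 6.96 in deficient cells, against 9.30, 9.12 and 9.21 in heterozygous cells, 4.34-fold lower (adjusted p = 0.00795). The 2 groups did not overlap for any of these genes, as for all 163 called.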
